A study of Mus musculus with 6 samples.

Results

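The endothelin system of the DBA/2J mouse retina was followed through its ligand genes Edn1, Edn2 and Edn3, its receptor genes Ednra and Ednrb and its converting enzyme genes Ece1 and Ece2. Members were all probe sets whose single gene symbol in the platform annotation was one of these 7 genes. This gave 14 of the 45037 probe sets of the array and 6 of the 7 genes. Ednra had no probe set under its single symbol and was not analysed here. DBA/2J is an inbred strain that develops raised intraocular pressure and glaucoma with age. Each of 6 Affymetrix arrays held the RNA of 1 whole retina from a separate female DBA/2J animal, 3 taken at 3 months and 3 at 8 months. Animals were chosen for normal pressure at 3 months, with a final reading of 15.3 to 19.1 mmHg, and for elevated pressure at 8 months, with 25.3 to 30.4 mmHg. Age and pressure therefore cannot be told apart, and no other strain was arrayed. All 3-month retinas and 8-month retina 1 were from left eyes, whereas 8-month retinas 2 and 3 were from right eyes.

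Endothelins are short vasoconstrictor peptides. They are cut from longer precursors, first by furin-type proteases and then by endothelin-converting enzymes, and act through 2 G-protein-coupled receptors, ETA and ETB. Endothelial cells are the classical source of endothelin-1, and ETB also occurs on glia. In the retina, endothelin-2 is known as a signal made by photoreceptors after injury. Endothelins have been studied in glaucoma for their action on vessels of the optic nerve head, on astrocytes and on ganglion cells.

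Values are GCRMA values on the log2 scale, so a difference of 1 is a doubling. A probe set was taken as measured where at least 3 of its 6 values reached 4. In all, 20973 probe sets passed, and 5 of the 14 members did: 1 each for Edn1, Edn3, Ednrb, Ece1 and Ece2. None of these 5 was called between ages at a Benjamini-Hochberg adjusted limma p under 0.05, where 1 of all 20973 was, or 0.00477%. At an unadjusted p under 0.05 there was 1 member of 5, Ece2, against 14.9% of all measured probe sets. That background comprised 971 higher and 2155 lower probe sets as deposited and 1385 and 1410 after quantile normalization. In 0 of the 5 did the ages not overlap, against 21.8% over all measured probe sets. Of the 5, Edn1 had the higher mean at 8 months and 4 the lower, where 59.4% of all measured probe sets were lower and the median difference was -0.04. Over as few as 5 members, such shares are not a result about the members.

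**Figure D1:**
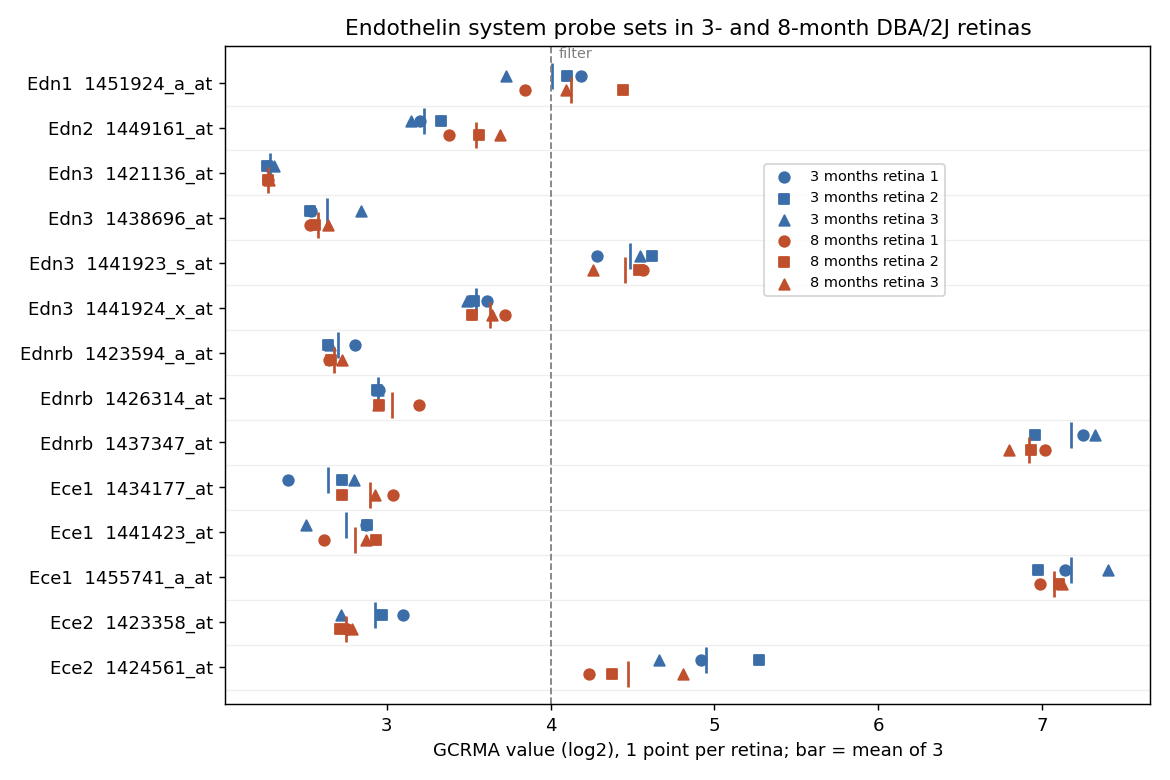
GCRMA values (log2) of the 14 endothelin probe sets in each of 6 retinas, blue for 3 months and red for 8 months, with the mean of 3 as a vertical bar and the filter of 4 as a dashed line. Only for Edn2, which lies below the filter in every retina, are all 3 older retinas above all 3 younger ones.

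Edn2 was the member whose ages were separated, at a level below the filter. Its probe set 1449161_at read 3.20, 3.33 and 3.15 at 3 months and 3.38, 3.56 and 3.69 at 8 months, here and below in the order of retinas 1 to 3. Every older retina lay above every younger one, but the gap between 8-month retina 1 and 3-month retina 2 was small and the readings from right eyes were the highest. The means were 3.23 ± 0.09 and 3.54 ± 0.16 (SD, n = 3 each), a difference of 0.32 ± 0.10 (SE) or 1.25-fold. In the limma fit without a filter on low values the unadjusted p was 0.0214 and the Benjamini-Hochberg adjusted p 0.462, with a 95% interval of 0.07 to 0.56. The two-sided exact permutation p was 0.1, the smallest that 3 against 3 retinas can give. Among the 9 members below the filter it was the 1 without overlap, and over all 24064 probe sets below the filter the share was 11.1%, or 4.97% when counted as higher at 8 months. Over all 14 members it was also the 1 with an unadjusted p under 0.05 in that fit, against 9.23% of the table, of which 0% passed after adjustment. In left eyes alone, where 1 older retina stands against 3 younger ones, the difference was 0.15. GCRMA presses weak signals toward a floor, so the size of this difference is uncertain.

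Since Edn2 can be induced in injured photoreceptors, the sequence before its start is shown here for the member with separated ages. It was read from RefSeq (GRCm38.p6, plus strand) at chr4:120160956-120161205, the 250 bases before the annotated start. Letters searched for on both strands were ACGTG, a form of the core recognised by hypoxia-inducible factors, TGANTCA of AP-1 and AGATAA of GATA factors. Matches would stand in capitals, and other forms of these motifs, such as GCGTG, were not searched.
Edn2: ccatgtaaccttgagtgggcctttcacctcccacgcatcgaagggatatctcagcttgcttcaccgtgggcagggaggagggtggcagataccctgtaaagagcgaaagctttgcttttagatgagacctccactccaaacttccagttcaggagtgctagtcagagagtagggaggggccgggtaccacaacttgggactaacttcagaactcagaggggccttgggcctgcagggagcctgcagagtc
None of the 3 was in this window. The form GCGTG, which was not searched, does occur in it, as cacgc on the printed strand. Its share over all windows was not counted. Of all 32851 RefSeq windows of this length, 16.6% held ACGTG, 6.75% TGANTCA and 9.99% AGATAA. Over the 10 windows of the 7 endothelin genes, ACGTG was in 2 and the other motifs in 0.

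Edn1, the precursor of endothelin-1, was read close to the filter. Its probe set 1451924_a_at read 4.19, 4.10 and 3.73 at 3 months against 3.85, 4.44 and 4.09 at 8 months. The ages overlapped, with the highest and the second lowest reading both at 8 months. The means of 4.01 ± 0.24 and 4.13 ± 0.30 (SD, n = 3) differed by 0.12, with a 95% interval from -0.31 to 0.55 (limma adjusted p = 0.773). The sign turned without 3-month retina 3 (-0.019), without 8-month retina 2 (-0.038) and in left eyes alone (-0.16).

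Edn3, the ligand best known for neural crest development together with ETB, had 4 probe sets. The 1 that passed the filter, 1441923_s_at, carries a suffix for probes that may match other transcripts. It read 4.28, 4.62 and 4.54 at 3 months and 4.57, 4.54 and 4.26 at 8 months, so the ages covered almost the same range. The difference was -0.03, with a 95% interval of -0.33 to 0.28 (limma adjusted p = 0.937), and it was 0.056 after median centring. A further less specific probe set, 1441924_x_at, ranged from 3.49 to 3.72. The specific probe set 1421136_at stayed between 2.27 and 2.31 in all 6 retinas, and 1438696_at between 2.53 and 2.84. No level of Edn3 could therefore be given from its specific probe sets.

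Ednrb, which encodes the ETB receptor, was measured by 1437347_at. This probe set read 7.25, 6.96 and 7.33 at 3 months and 7.02, 6.93 and 6.80 at 8 months. The lowest readings belonged to 8-month retinas 2 and 3, while 3-month retina 2 lay below 8-month retina 1, so the ages overlapped by 1 retina. The means were 7.18 ± 0.20 and 6.92 ± 0.11 (SD, n = 3 each), a difference of -0.26 ± 0.12 (SE), with a 95% interval of -0.54 to 0.03. It did not pass (limma unadjusted p = 0.0681, adjusted p = 0.365). The difference was -0.37 without 3-month retina 2 (limma adjusted p = 0.145) and -0.19 without 3-month retina 3 (0.588). It was -0.16 with eye side as a covariate and in left eyes alone. Both right eyes were 8-month retinas, so these settings give the same difference for every probe set. That difference sets 8-month retina 1 against the 3 younger retinas. The lowest readings were those of the right eyes. The other Ednrb probe sets, 1423594_a_at and 1426314_at, stayed between 2.64 and 2.81 and between 2.94 and 3.19. Their means differed by -0.02 and 0.08, so the gene's value rests on 1 probe set.

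Ece2, a converting enzyme found mainly in neural tissue, had the largest difference of the 5 measured members. Its probe set 1424561_at read 4.92, 5.27 and 4.66 at 3 months against 4.24, 4.37 and 4.81 at 8 months. The lowest readings were both at 8 months and the highest both at 3 months, with 8-month retina 3 above 3-month retina 3. The means were 4.95 ± 0.31 and 4.47 ± 0.30 (SD, n = 3 each), a difference of -0.48 ± 0.20 (SE), or 1.39-fold higher at 3 months, with a 95% interval of -0.95 to -0.01. It did not pass (limma unadjusted p = 0.0469, adjusted p = 0.330). In the limma fit without a filter the interval was -1.05 to 0.09 and the unadjusted p 0.0845. In absolute size the difference exceeded that of 96.6% of all measured probe sets, and the spread over the 6 retinas exceeded that of 95.9%. The difference was -0.32 without 3-month retina 2 and -0.65 without 8-month retina 3. A further Ece2 probe set, 1423358_at, read 3.10, 2.97 and 2.72 at 3 months and 2.75, 2.72 and 2.79 at 8 months, below the filter. It was also lower on average at 8 months, by -0.18 (log2 difference), with overlapping ages (limma fit without a filter, unadjusted p = 0.151).

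The window before the start of Ece2 is shown because this member differed most and its window holds ACGTG. It lies on the plus strand at chr16:20629601-20629850 (RefSeq, GRCm38.p6), with the match in capitals. RefSeq lists the joint transcript name Eef1akmt4-Ece2 as a synonym of this entry, so the start may serve that transcript.
Ece2: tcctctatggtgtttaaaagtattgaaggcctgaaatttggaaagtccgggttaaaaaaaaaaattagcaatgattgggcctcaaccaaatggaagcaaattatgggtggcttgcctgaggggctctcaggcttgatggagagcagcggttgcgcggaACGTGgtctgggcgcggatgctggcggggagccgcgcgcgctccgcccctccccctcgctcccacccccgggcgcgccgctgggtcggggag
The other window with these letters belongs to 1 of the 4 annotated starts of Ece1. A match is a stretch of letters, not a site shown to be bound.

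Ece1, the main endothelin-converting enzyme of endothelium, did not differ beyond the spread of single retinas. Its probe set 1455741_a_at read 7.14, 6.98 and 7.41 at 3 months and 6.99, 7.11 and 7.12 at 8 months. The older retinas lay inside the range of the younger ones. The difference was -0.10 ± 0.12 (SE), with a 95% interval of -0.39 to 0.18 (limma adjusted p = 0.698), and it was 0.012 without 3-month retina 3. Below the filter, 1434177_at read 2.40 to 2.80 at 3 months and 2.72 to 3.04 at 8 months, and 1441423_at 2.51 to 2.88 and 2.61 to 2.93. Their differences were 0.26 and 0.05, opposite in sign to that of the measured probe set.

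**Figure D2:**
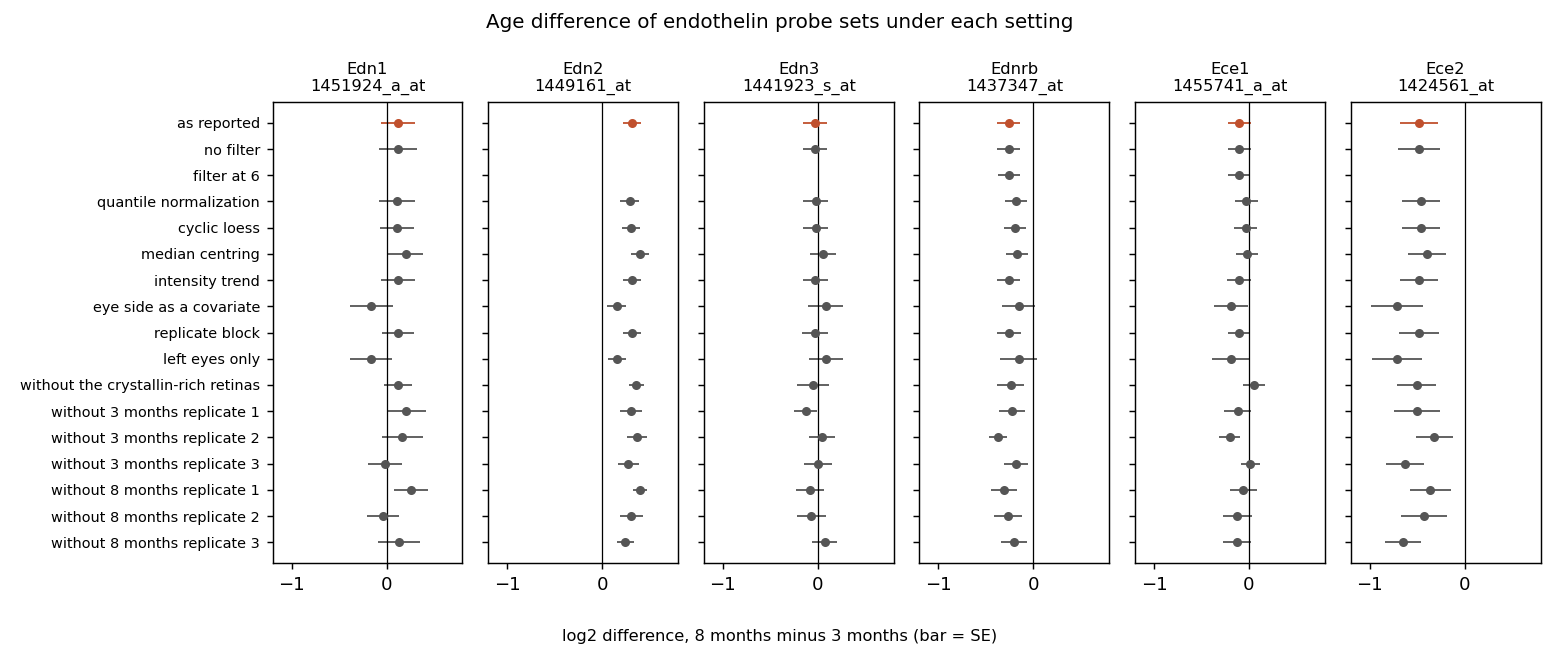
Log2 difference between 8 and 3 months, with its SE, for the 5 measured endothelin probe sets and Edn2 under each processing setting and with single retinas left out; Edn2 is taken from fits without a filter, and gaps are probe sets that a setting removes. Ece2 and Ednrb stayed below 0 and Edn2 above 0 in every setting drawn, while Edn1, Edn3 and Ece1 crossed 0. For Edn2, whose ages did not overlap, settings that leave out retinas could not turn the sign.

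Genes around the endothelin members were described from 4 lists, with each gene read by its brightest measured probe set. Of the list of processing and degrading proteases, 3 of 11 genes were measured, of which 1 was higher and 2 lower at 8 months, with a median log2 difference of -0.15. None was called by limma, and 1 had an unadjusted p under 0.05, against 14.9% of all measured probe sets. In 2 of these 3 the ages did not overlap, 2 of them lower at 8 months, against 21.8% of all measured probe sets. Ctsa, a lysosomal carboxypeptidase that inactivates endothelin-1, read 6.52, 6.52 and 6.71 at 3 months and 6.04, 5.84 and 6.06 at 8 months. All older retinas lay below all younger ones, with a difference of -0.60 ± 0.10 (SE), but it did not pass over all probe sets (limma adjusted p = 0.177). Furin, which makes the first cut in the precursors, differed by -0.15 without overlap of the ages (limma adjusted p = 0.442), and the related convertase Pcsk6 by 0.14 (0.563). Neprilysin, Mme, which degrades endothelins, and the enzymes' relative Ecel1 stayed below the filter.

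Of the receptor signalling list, 20 of 25 genes were measured, 10 higher and 10 lower, with a median of 0.01. None was called by limma, and 2 had an unadjusted p under 0.05, against 14.9% of all measured probe sets. In 6 of these 20 the ages did not overlap, 3 of them lower at 8 months, against 21.8% of all measured probe sets. The smallest p values belonged to Plcb1, Plcb4 and Plcb3, phospholipase C genes, which carry the signal from Gq to calcium release, and their differences varied in sign. Plcb1 read 6.80, 6.51 and 6.67 at 3 months and 6.21, 6.34 and 6.43 at 8 months, a difference of -0.33 without overlap (limma adjusted p = 0.269). Plcb4 differed by -0.24 in its brighter probe set and by 0.08 in the dimmer one, and Plcb3 by 0.24 (limma adjusted p = 0.315, 0.644 and 0.341). The fourth measured gene of this kind, Plcb2, differed by 0.048 (0.794). The Gq subunit genes Gnaq and Gna11 differed by 0.07 and -0.07.

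Of 10 genes known to induce endothelin genes, 9 were measured, 4 higher and 5 lower, with a median of -0.01. None was called by limma, and 2 had an unadjusted p under 0.05, against 14.9% of all measured probe sets. In 4 of these 9 the ages did not overlap, 2 of them lower at 8 months, against 21.8% of all measured probe sets. Hif1a encodes an oxygen-regulated factor for which ACGTG is a form of the core. It read 12.29, 12.57 and 12.12 at 3 months and 12.65, 12.67 and 12.61 at 8 months in 1427418_a_at. The ages did not overlap there and differed by 0.31 (limma adjusted p = 0.309). The other Hif1a probe sets differed by -0.02 and 0.28, both with overlap. Its relative Epas1 differed by -0.15 and Smad4, a mediator of TGF-beta signals, by -0.23 to 0.21 over 3 probe sets.

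Of 10 genes of the injury response that accompanies Edn2 in photoreceptor damage, 8 were measured and all 8 had the higher mean at 8 months, with a median of 0.31. None was called by limma, and 4 had an unadjusted p under 0.05. Over all measured probe sets 40.6% were higher and 14.9% had such a p. The median was 0.078 with eye side as a covariate and in left eyes alone. This list was composed with earlier results on Gfap and Socs3 known, so its count lends no support to a direction. Within it, Serpina3n reached the filter only in 8-month retinas 2 and 3 and in 3-month retina 3. Lifr, the receptor gene for leukaemia inhibitory factor, read 9.61, 10.10 and 9.73 at 3 months and 10.38, 10.24 and 10.05 at 8 months, overlapping by 1 retina (difference 0.41, limma adjusted p = 0.295). Gfap and Socs3 differed by 1.07 and 0.64 in less specific probe sets (limma adjusted p = 0.223 and 0.285). The specific Gfap probe set, 1426508_at, differed by 0.41 with overlapping ages (0.365). Lif and Fgf2 stayed below the filter.

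**Figure D3:**
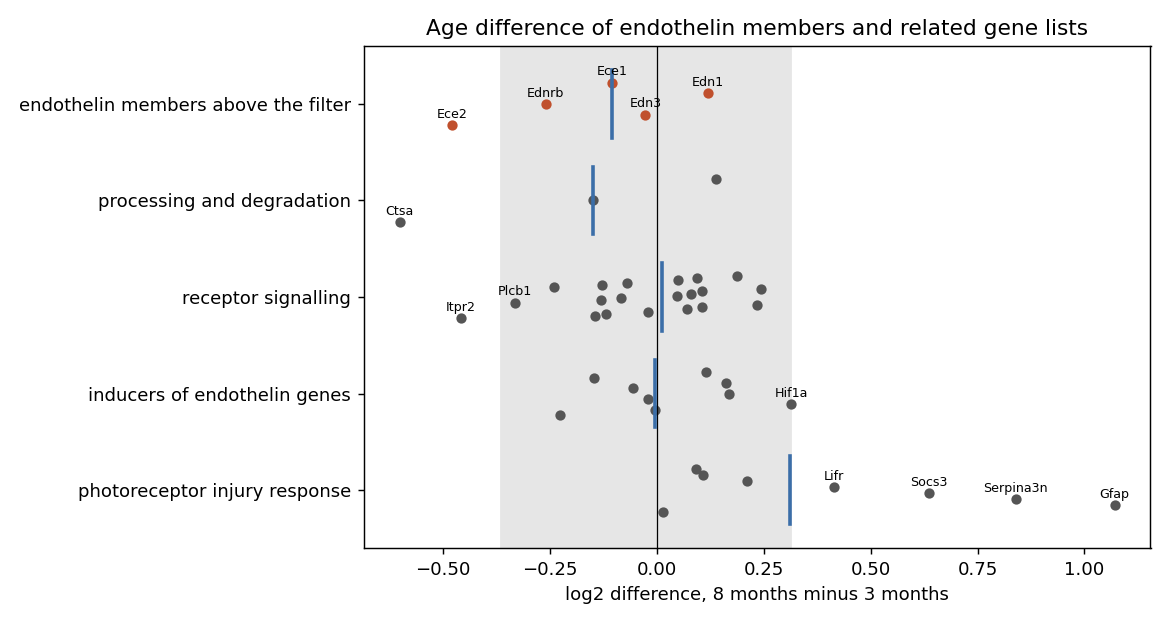
Log2 difference between 8 and 3 months of the 5 measured endothelin members (red) and of the measured genes of 4 related lists (grey), with the median of each row as a blue bar. The shaded band holds the central part of all measured probe sets, from -0.36 at the 5th to 0.31 at the 95th percentile; of the members, Ece2 lies outside it.

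The cell types that make or receive endothelins were read in the same arrays. Of endothelial markers, 6 of 11 were measured, and their mean level was 5.96 to 6.08 at 3 months and 5.68 to 5.74 at 8 months, with Pecam1, Cdh5, Tie1, Vwf and Emcn below the filter. Abcb1a, Tek and Cldn5 differed by -0.66, -0.57 and -0.44 (limma adjusted p = 0.181, 0.348 and 0.269), Flt1, Kdr and Esam by -0.18, -0.08 and 0.17. Of these 6, none was called by limma and 2 had an unadjusted p under 0.05, beside 14.9% of all measured probe sets. In 2 of the 6 the ages did not overlap, beside 21.8%. The median of these genes was -0.31, -0.13 over those left with the filter at 6, and -0.18 with eye side as a covariate and in left eyes alone. In whole retinas, fewer cells of a type and less RNA per cell cannot be told apart. Pericyte and smooth muscle markers were measured for 2 of 9 genes, with Acta2 and Myh11 below the filter. Of Müller glia markers 9 of 10 were measured, at 9.70 to 9.86 and 9.77 to 9.90, and of astrocyte markers 6 of 7, at 6.38 to 6.62 and 6.54 to 6.65. Of microglia and macrophage markers 7 of 14 were measured, at 5.45 to 5.55 and 5.96 to 6.06, with Aif1, Itgam and Cx3cr1 below the filter. All 7 had the higher mean at 8 months, none was called by limma, and 4 had an unadjusted p under 0.05, beside 14.9%. In 4 of the 7 the ages did not overlap, beside 21.8%. Lyz2 and Fcgr3 reached 4 in every older retina but not in every younger one. The levels and counts that include them therefore lend no support to a direction. With the filter at 6, which Lyz2 and Fcgr3 did not reach, the median difference of the genes left was 0.85. Of rod and cone markers 10 of 12 were measured, at 10.65 to 10.77 and 10.59 to 10.62, and 8 of the 10 had the lower mean at 8 months, with a median difference of -0.08. In 5 of them, among which were Pde6b (-0.20), Cnga1 (-0.20), Gnat2 (-0.44) and Opn1mw (-0.48), all older retinas lay below all younger ones. In 1 more, Pde6c (0.34), they lay above, beside 21.8% of all measured probe sets without overlap. None of the 10 was called by limma, and 4 had an unadjusted p under 0.05, beside 14.9%. Transcripts of Gnat1 and Sag, which mark rods, were abundant at both ages, at 13.39 and 13.47 and at 13.90 and 13.83. Of ganglion cell markers 10 of 11 were measured, at 8.39 to 8.59 and 8.30 to 8.38. At 8 months 8 had the lower and 2 the higher mean, with a median difference of -0.11. None was called by limma, and 2 had an unadjusted p under 0.05, beside 14.9%. In 2 the ages did not overlap, both lower at 8 months, beside 21.8%. The part of these cell types in the differences of Edn2, Ednrb and Ece2 was not tested. Lens markers, 8 of 12 measured, averaged 10.63 in the third retina of 3 months, 9.55 in the first of 8 months and 4.28 to 6.21 elsewhere. Without those 2 retinas the differences were 0.36 for Edn2, -0.24 for Ednrb, -0.51 for Ece2 and 0.054 for Ece1. The 3' minus 5' signal of Gapdh was 0.71 to 0.75 at 3 months and 0.76 to 0.81 at 8 months (log2), and its part in the differences was likewise not tested.

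The probe sets whose pattern over the 6 retinas was most like that of a measured member were listed, as a description, by Pearson's r with 15900 or 15901 specific probe sets of other genes. Ednrb was followed most closely by Adgrl3, a latrophilin receptor gene, by S100pbp and by the ATP synthase gene Atp5a1, with r of 0.999, 0.999 and 0.994, and 153 probe sets had r above 0.95. For Ece2 these were Otop3, Tmem266 and BC030500, with r of 0.991, 0.990 and 0.990, and 37 probe sets lay above 0.95. Ece1 was nearest to Slc6a11, a GABA transporter gene, with r of 0.992 and 38 probe sets above 0.95. The list went on with Mrps7 and Cep76, at 0.989 and 0.988. For Edn1 the nearest were Polr2f, Echdc1 and Trim9, at 0.988, 0.972 and 0.971, with 8 probe sets above 0.95, and for Edn3 they were Foxp2, Them4 and Ift74, at 0.994, 0.994 and 0.980, with 7. All these values rest on 6 retinas and on the same arrays.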

How the data were processed

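RNA of 6 retinas, 3 per age, was amplified, biotin-labelled and hybridised to Affymetrix mouse arrays, per the labels' protocols. The deposited values are log2 expression per probe set. Per the submitters' processing notes the authors used GCRMA, version 1.1.0, under R version 1.9.0, with options not stated in the sources used here. Of 45101 probe sets in the deposited table, 64 controls were set aside. The platform annotation gave 1 symbol to 34945 probe sets, several to 932 and none to 9160.

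The comparison of ages used limma 3.58.1 (lmFit, eBayes; R 4.3.3) on all probe sets for which at least 3 of 6 values reached 4. P-values were two-sided and adjusted by Benjamini-Hochberg over that whole set, with a threshold of 0.05. No covariate was fitted. Members below the filter were read from a fit without it. The fit was tested on simulated data. The number of arrays limits the precision. Members and lists were chosen with earlier results of these data known. Named genes were all members, up to 3 genes of smallest p per pathway list, and the 3 probe sets most correlated with each measured member. The cell type markers named singly, and Gnaq, Gna11, Plcb2, Mme, Ecel1, Lif, Fgf2 and Serpina3n, were chosen after their values were seen. Promoter windows came from RefSeq. Alternatives changed the filter, scaling, prior, covariate, block and retinas used.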

Additional observations from a re-analysis of the deposited data

How the results depend on the processing

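With 3 retinas per age, differences of the size seen in Ece2 or Edn2 had intervals reaching close to 0, and 9 of 14 members lay where GCRMA compresses signal. No member probe set and no listed gene was called under any alternative run: other filters, scalings, an intensity trend, eye side as a covariate, a replicate block, left eyes alone, without the crystallin-rich retinas and without single retinas. The count of probe sets called over the whole table was 1 as reported, 2 with the filter at 6, after quantile normalization, cyclic loess and median centring, and 0 without a filter, with eye side, with the replicate block, in left eyes, without the crystallin-rich retinas and without each single retina (range 0 to 0). Edn1 became -0.16 with eye side and in left eyes, and -0.038 to 0.26 with single retinas left out. Edn3 (1441923_s_at) became 0.056 after median centring, 0.084 with eye side and in left eyes, and -0.13 to 0.072 with single retinas left out. Ece1 (1455741_a_at) became 0.054 without the crystallin-rich retinas and -0.20 to 0.012 with single retinas left out. The cause was not tested. Edn2, Ednrb (1437347_at) and Ece2 (1424561_at) kept their direction, at 0.15 to 0.40, -0.37 to -0.16 and -0.71 to -0.32. For Edn2, whose ages did not overlap, leaving out retinas could not turn the sign, so those settings do not test its direction. Measured members without overlap of ages numbered 0 as reported, 2 without the crystallin-rich retinas and 0 to 2 with single retinas left out. Fewer retinas make overlap less likely, and no share over all probe sets is given here for those settings. These counts are therefore not a result about the members. Replicate numbers did not pair the samples: same-numbered retinas correlated at -0.14, 0.06 and -0.28 in their deviations from the age means, and no retina correlated best with its own number. With the replicate block the probe sets at an unadjusted p under 0.05 numbered 2728 against 3126.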
